A study of Mus musculus with 9 samples.

Results

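The nuclear genes for the respiratory chain and ATP synthase were examined in liver RNA from mice given an agonist antibody to CD40. They were taken by gene name from the deposited table, as every row whose name starts with Nduf followed by a, b, c, s or v and a digit, with Uqcr, with Atp5, or with Cox, a digit from 4 to 8 and a letter, together with the Sdh rows a to d. The rule took 84 of the 24341 genes, of which 37 were in complex I, 4 in complex II, 8 in complex III, 18 in complex IV and 17 in ATP synthase. A name is not a function, and 10 of the 84 were muscle, testis or hypoxia isoforms or were named like a subunit without being one (Cox4i2, Cox6a2, Cox6b2, Cox7a1, Cox7b2, Cox8b, Cox8c, Ndufa4l2, Atp5s and Atp5sl). Results for the other 74 are given beside those for all 84. These 74 still hold Cox7a2l, which is an assembly factor for supercomplexes, so counts are also given without it.

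Oxidative phosphorylation takes place in the inner mitochondrial membrane. Complexes I and II pass electrons from NADH and succinate to ubiquinone, complex III passes them to cytochrome c and complex IV to oxygen, and ATP synthase uses the proton gradient that complexes I, III and IV build. Most subunits are encoded in the nucleus and imported, while the core of complexes I, III, IV and of the ATP synthase membrane sector also needs subunits made inside the mitochondrion. Hepatocytes are rich in mitochondria and spend their ATP on the synthesis of urea, glucose and plasma proteins.

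Whole liver was collected 48 hours after treatment from wild-type C57BL/6 mice. There were 3 mice given the agonist anti-CD40 antibody FGK45 (mice 2, 5 and 9) and 6 control mice (mice 3, 4, 7, 8, 11 and 12), whose treatment is named PBS in the sample records. The general methods give mice as sex matched and 8 to 12 weeks old unless otherwise stated. They name the strain C57BL/6J, bought or bred in-house, and state that animals carrying Cre driven by the Pdx promoter served in some experiments, with no source given for any single mouse. QuantSeq 3′ libraries hold reads from near the 3′ end of each transcript, and the values are FPKM, which scale a gene's fragments to its transcript length and to the mapped reads of the library, with a floor of 0.01. FPKM divides by transcript length although 3′ reads do not grow with length, so comparisons are between mice, for a gene, a fixed set of genes or a fixed ratio, and genes are not ranked by their FPKM.

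The table gives no read totals, so depth is unknown, and each group's p-values measure the spread between these mice in 1 experiment. The acute phase genes Saa1, Saa2 and Saa3 held 25.4% to 25.9% of summed FPKM in treated mice and 0.0449% to 0.380% in controls, which bears on every value that is relative to a total. Hepatocyte markers were present in every mouse, with sums of 5157 to 5925 FPKM after anti-CD40 and 12734 to 23696 FPKM without it, and 5 of the 7 tested were lower and 1 (Apob) was higher. All 6 Kupffer cell markers tested were lower, with sums from 39.0 to 50.7 against 285 to 456, and all 6 neutrophil markers tested were higher, with sums from 4210 to 5196 against 18.3 to 155. Single mice stood apart for genes of other tissues: red cell genes were highest in control mouse 4, pancreatic acinar genes were highest in anti-CD40 mouse 5, and brown fat genes were highest in control mice 4 and 7. The part of these shifts in the results was not tested.

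Promoter sequences are shown for 4 members because subunits of all the complexes moved together. RefSeq promoter sequences of the GRCm38.p6 build, with 250 bases before and 50 after a gene's start, were matched to 69 members. Motifs searched on both strands were GCATGCGC (known as a site of NRF1), CCGGAAG (the core of ETS factors such as GABPA) and GCCATCTT (YY1), none of which contains another. The 250 bases before the start are printed on the strand of the gene, with motif letters in capitals. They belong to Sdhb (chr4:140961021-140961270, plus strand), the most reduced ubiquitous subunit among those that passed the test; Cox6a1 (chr5:115348959-115349208, minus strand), which held the most motif matches; Cox7a1 (chr7:30183921-30184170, plus strand), an isoform of muscle and brown fat; and Cox7a2l (chr17:83514334-83514583, minus strand), the least reduced member that passed the test.
Sdhb: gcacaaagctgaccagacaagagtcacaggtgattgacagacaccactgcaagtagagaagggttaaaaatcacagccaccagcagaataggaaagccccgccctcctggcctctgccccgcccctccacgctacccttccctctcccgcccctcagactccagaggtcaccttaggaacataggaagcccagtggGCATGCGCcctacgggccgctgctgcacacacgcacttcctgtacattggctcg
Cox6a1: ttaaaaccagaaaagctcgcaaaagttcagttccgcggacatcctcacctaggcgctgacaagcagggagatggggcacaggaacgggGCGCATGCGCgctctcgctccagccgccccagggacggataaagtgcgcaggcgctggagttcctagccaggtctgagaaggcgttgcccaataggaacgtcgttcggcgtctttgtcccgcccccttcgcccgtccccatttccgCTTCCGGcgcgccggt
Cox7a1: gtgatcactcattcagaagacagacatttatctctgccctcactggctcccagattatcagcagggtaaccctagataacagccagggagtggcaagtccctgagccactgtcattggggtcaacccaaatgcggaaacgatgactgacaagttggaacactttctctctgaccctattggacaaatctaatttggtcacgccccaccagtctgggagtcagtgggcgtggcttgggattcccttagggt
Cox7a2l: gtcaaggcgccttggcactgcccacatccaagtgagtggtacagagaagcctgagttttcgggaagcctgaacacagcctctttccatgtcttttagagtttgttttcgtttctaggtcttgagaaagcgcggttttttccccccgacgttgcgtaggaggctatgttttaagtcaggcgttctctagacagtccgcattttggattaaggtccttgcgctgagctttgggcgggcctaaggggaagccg

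The capitals in Sdhb are 1 NRF1 match, and those in Cox6a1 are an NRF1 palindrome that matches on both strands, followed by 1 ETS match. The palindrome gives 2 of the 3 matches in Cox6a1. Counted as 1 site, it would leave Cox6a1 level with Atp5j and Atp5l. The Cox7a1 and Cox7a2l stretches held none of the 3 motifs, which says only that these letters are not in this window. The shares and counts that follow cover the 250 bases before and the 50 after the start, so they reach past the printed stretch. At least 1 of the motifs was found in 44.9% of the 69 members and in 14.9% of all 27025 genes in the promoter table. At least 1 was held by 26.3% of the 10425 tested genes with a promoter sequence, and of the 3405 among these whose mean FPKM reached 10 it was 30.7%. By motif, the shares in members and in those 3405 genes were 14.5% and 6.08% for NRF1, 23.2% and 22.2% for ETS, and 15.9% and 6.14% for YY1. The YY1 letters were in 21.9% of 32 complex I promoters and 25% of 16 ATP synthase promoters. In complexes II, III and IV they were in 0 of 3, 0 of 5 and 0 of 13. Within the 250 bases before the start, no complex I promoter held the YY1 letters, and in ATP synthase only Atp5sl and Atp5j did. All other YY1 matches of members lay in, or reached into, the 50 bases after the start. These numbers are small, and differences between complexes were not tested. Of the 6 matched members not called lower, 2 held a motif, against 29 of the 63 that were lower. The 6 include Cox7b2, which was not tested. These are descriptions of sequence, and binding was not measured.

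Nearly all members were lower in the anti-CD40 mice. Of 81 members whose mean FPKM reached 0.1, 75 were lower, 0 were higher and 6 did not pass the test (limma on log2(FPKM + 0.1), 2-sided, Benjamini-Hochberg adjusted p under 0.05 over all genes tested; adjusted values quoted for single genes below come from this test). At an unadjusted p under 0.05 the number higher was also 0. For comparison, 21.7% of the 13807 genes tested were lower and 23.5% were higher. Among the 4451 genes whose mean FPKM reached 10, as it did for most members, 38.7% were lower. The median log2 fold change was -1.15 over the members, 0.0056 over all genes tested and -0.25 over those 4451 genes. With the 10 isoforms and misnamed rows left out, 70 of 74 were lower and the median was -1.14, and with Cox7a2l left out too 69 of 73 were lower and the median was -1.15. In bulk liver, fewer cells of a type and less RNA per cell cannot be told apart.

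The size of the decrease was alike across the members. Log2 fold changes of 65 of the 81 lay between -1.5 and -0.5, the quartiles were -1.29 and -0.92, and 54 were at or below -1. Every anti-CD40 mouse was below every control mouse in 73 members, each with the smallest 2-sided p that the exact permutation test over 84 assignments of the 9 mice allows (0.0238), where 19.6% of all genes tested showed the same separation. Summed over the 84, FPKM was 37813 to 42118 in treated mice and 79133 to 94993 in controls.

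**Figure D1:**
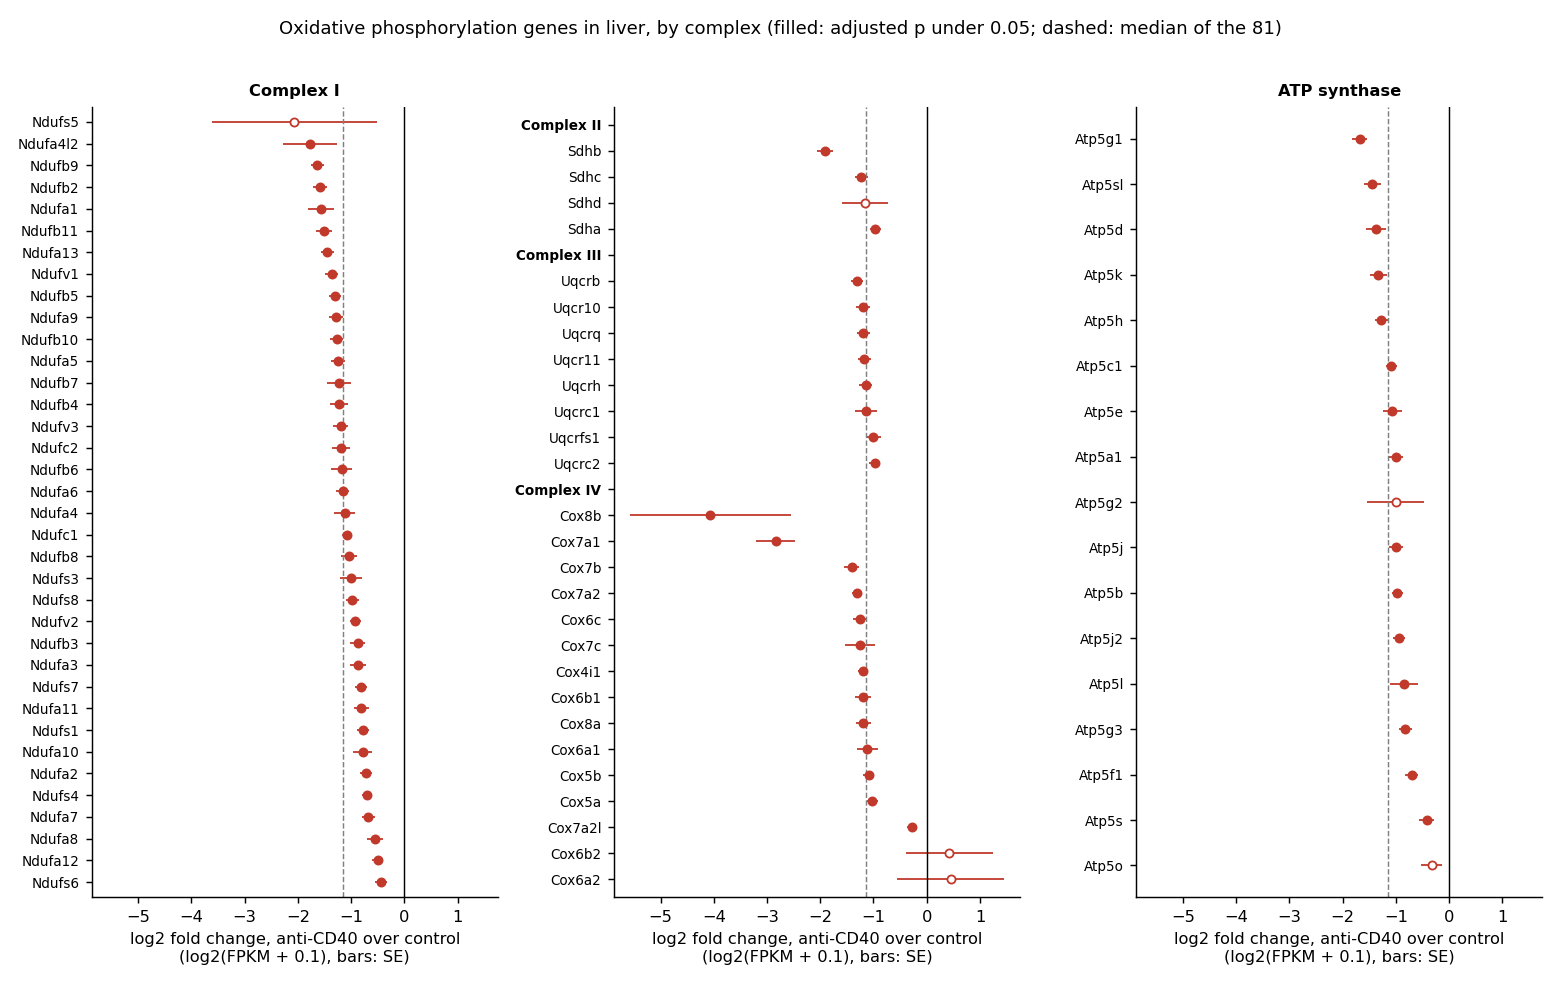
Log2 fold change of 80 of the 81 tested members (anti-CD40 over control, on log2(FPKM + 0.1)) with its standard error, from limma on 3 and 6 mice, grouped by complex; filled points passed the test and the dashed line is the median of the 81. Points crowd around -1.15 in every complex, with Cox8b and Cox7a1 far below and Cox6a2 and Cox6b2 above 0 with wide errors.

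By complex, the medians were -1.16 for complex I, -1.19 for complex II, -1.16 for complex III, -1.19 for complex IV and -1.0 for ATP synthase. The number lower was 36 of 37, 3 of 4, 8 of 8, 13 of 15 and 15 of 17 in the same order. The mean log2 level of all 81 members, relative to the control mean, was -1.02 in mouse 2, -1.18 in mouse 5 and -1.18 in mouse 9, and the controls ranged from -0.12 to 0.12. The 3 treated mice were therefore close to each other and far from every control. Complex III had the narrowest range among controls, from -0.10 to 0.06, with anti-CD40 levels of -1.09, -1.16 and -1.18. Complex IV was the widest among controls, from -0.37 to 0.44, where mice 4 and 7 were the 2 highest. Much of that range came from Cox8b, an isoform described below, since the 14 other members of complex IV ranged from -0.21 to 0.19 in the controls. Differences between the medians of the complexes were not tested.

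**Figure D2:**
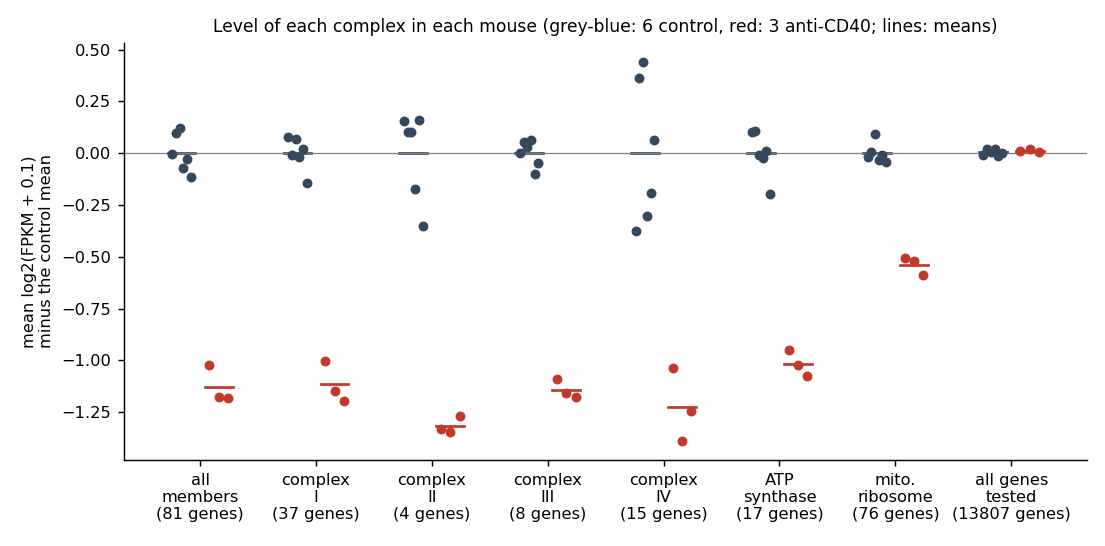
Mean log2(FPKM + 0.1) of the tested members of each complex in each mouse, minus the control mean, beside mitochondrial ribosomal protein genes and all genes tested; points are mice and lines are group means. The 3 anti-CD40 mice sit between -0.95 and -1.39 for every complex, at -0.51 to -0.59 for the mitochondrial ribosome and near 0 for all genes.

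Complex II, succinate dehydrogenase, links the citric acid cycle to the chain and is encoded wholly in the nucleus. Sdhb, its iron-sulfur subunit, had 175, 152 and 152 FPKM in anti-CD40 mice 2, 5 and 9, and the controls ran from 512 through a median of 592 to 796. The groups were far apart, with a log2 fold change of -1.91 (SE 0.15, adjusted p = 4.99e-06), the largest decrease among ubiquitous members that passed the test. Sdha, the flavoprotein that oxidizes succinate, had 78.0, 69.9 and 83.3 FPKM against controls of 136, 154 (median) and 163, a log2 fold change of -0.97 (SE 0.11, adjusted p = 4.43e-05). Sdhc, a membrane anchor, was lower by a log2 fold change of -1.23 (SE 0.12, adjusted p = 1.76e-05).

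Sdhd, the other anchor, did not pass the test, and its controls were divided. It had 57.6, 66.0 and 70.8 FPKM in the anti-CD40 mice, while control mice 3, 4, 7 and 11 had 183 to 224 and control mice 8 and 12 had 68.2 and 66.7. Those 2 controls lay inside the range of the treated mice. The log2 fold change was -1.15 (SE 0.43, adjusted p = 0.0504). Leaving out control mouse 8 gave -1.37 (adjusted p = 0.0155), leaving out control mouse 12 gave -1.38 (adjusted p = 0.0126), and leaving out both, a choice made after the values were seen, gave -1.70 (adjusted p = 2.23e-05).

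Complex III, the cytochrome bc1 complex, had all 8 members lower, with no overlap between groups in any of them. Uqcrb, a small matrix-side subunit, had 483, 470.05 and 526 FPKM against controls of 1059, 1225 (median) and 1367, a log2 fold change of -1.30 (SE 0.11, adjusted p = 1.09e-05). Uqcr10, a small supernumerary subunit, had 1105, 867 and 987 FPKM against 2117, 2169 (median) and 2681, a log2 fold change of -1.20 (SE 0.13, adjusted p = 3.40e-05). The 2 smallest decreases were in Uqcrfs1, the Rieske iron-sulfur protein (-1.01, SE 0.14), and Uqcrc2, a core protein (-0.98, SE 0.10), so that these 8 spanned 0.98 to 1.30 log2 units of decrease. Cyc1, a subunit of the same complex that the name rule does not take, is given below.

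Complex I, NADH dehydrogenase, had the most members. Ndufb9, a membrane-arm subunit, had 461, 410 and 419 FPKM in treated mice and 1183, 1306 (median) and 1634 in the controls, a log2 fold change of -1.63 (SE 0.12, adjusted p = 3.97e-06). Ndufv1, which binds NADH, had 42.2, 49.8 and 39.8 FPKM against 95.6, 110.4 (median) and 127, a log2 fold change of -1.36 (SE 0.12, adjusted p = 1.22e-05). At the other end, Ndufs6, an accessory subunit of the NADH-oxidizing arm, had 1072, 939.9 and 1124 FPKM against 1318, 1400.4 (median) and 1585, a log2 fold change of -0.44 (SE 0.11, adjusted p = 0.00756). Ndufa12 of the same arm was lower by a log2 fold change of -0.50 (SE 0.10, adjusted p = 0.00284). Groups did not overlap in any of these 4 genes, but with Saa1 to Saa3 left out and the rest rescaled the values of Ndufs6 and Ndufa12 were -0.07 (adjusted p = 0.566) and -0.13 (adjusted p = 0.234).

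The complex I members were also grouped by the part of the complex they belong to, a grouping made after the values were seen and given with no test. The 8 members of the module that oxidizes NADH (Ndufv1, Ndufv2, Ndufv3, Ndufs1, Ndufs4, Ndufs6, Ndufa2 and Ndufa12) were all lower, with a median of -0.75, and 2 of the 8 were at or below -1. Another 22 subunits were those that the grouping listed neither in this module nor in the one that reduces ubiquinone. They are a remainder, with many subunits of the membrane arm but also Ndufa6, Ndufa7 and Ndufa9. These 22 had a median of -1.21, and 16 of the 22 were at or below -1. The mean level of the NADH module minus that of these 22 was 0.21, 0.40 and 0.50 log2 units in anti-CD40 mice 2, 5 and 9, and from -0.18 to 0.24 in the controls. The groups overlapped in this difference, and its 2 highest controls were mice 8 and 12. The overlap came from Ndufs5, which is near the floor of the table and is described next. With the 21 subunits other than Ndufs5, a choice made after the values were seen, the difference was 0.30, 0.30 and 0.39 in the anti-CD40 mice and from -0.072 to 0.082 in the controls, with no overlap and with mice 8 and 12 still the 2 highest controls.

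Ndufa1, a membrane-arm subunit encoded on the X chromosome, was another member in which these mice stood apart. It had 563, 554 and 470.4 FPKM in the anti-CD40 mice, 943 and 1144 in control mice 8 and 12, and 1867 to 1994 in the other 4 controls. All controls were above all treated mice, with a log2 fold change of -1.56 (SE 0.25, adjusted p = 5.56e-04). Ndufs5, a small intermembrane-space subunit, was listed at 0.01, the floor, in mice 5 and 9 of the treated group and in control mice 8 and 12, at 1.87 in anti-CD40 mouse 2 and at 2.01 to 6.56 in the other 4 controls. It did not pass the test (log2 fold change -2.07, SE 1.55, adjusted p = 0.305), and without control mice 8 and 12 it was -3.80 (adjusted p = 0.0127).

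Control mice 8 and 12 were both below the other 4 controls in 15 of the 81 members (18.5%, against 13.96% of all genes tested) and both above them in 17 (21.0%, against 15.3%). Among the 15 was Cox7c, a complex IV subunit, with 1002 and 1020.5 FPKM in mice 8 and 12, 2005 to 2135 in the other 4 controls and 624 to 735 in the treated mice. Atp5l and Atp5g2 were also among the 15, and in Atp5l the lower control, 16.1 FPKM, was under the highest treated mouse, 16.2. Atp5l was lower (log2 fold change -0.85, SE 0.26, adjusted p = 0.0215) but did not pass in 7 of 23 alternatives, among them leaving out anti-CD40 mouse 5 (adjusted p = 0.0706) or mouse 9 (adjusted p = 0.0793) and leaving out Saa1 to Saa3 with the rest rescaled (-0.48, adjusted p = 0.179). Outside the members, Slc25a5, an ADP/ATP carrier, had 123 and 125 FPKM in these mice, 225 to 248 in the other 4 controls and 79.5 to 106 in the treated mice. The cause of this division was not tested, and the sample records give no batch. With both mice left out, 77 of 81 members were lower with a median of -1.15.

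**Figure D3:**
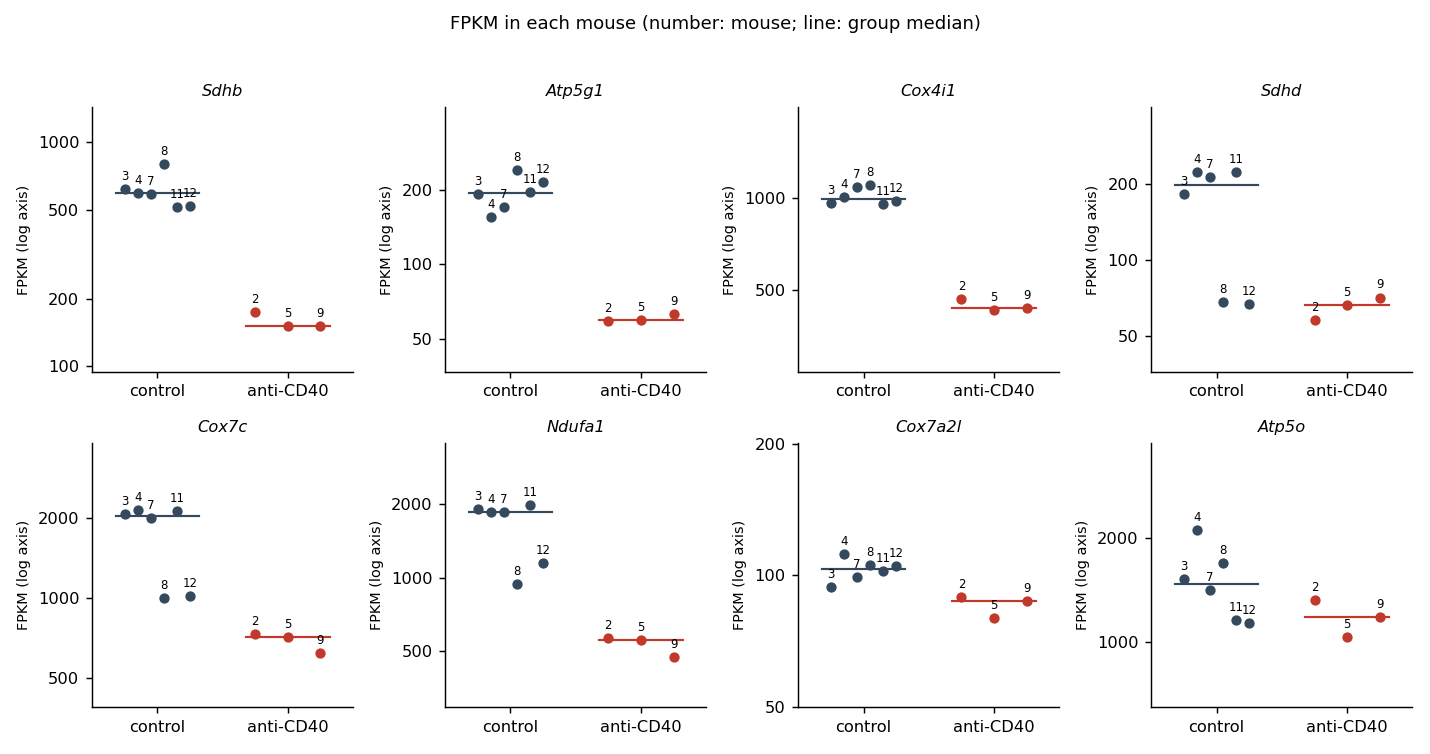
FPKM of 8 members in each mouse on a log axis, with the number of the mouse above each point and a line at the group median. In Sdhb, Atp5g1 and Cox4i1 the groups are far apart, in Sdhd, Cox7c and Ndufa1 control mice 8 and 12 sit below the other controls, and in Cox7a2l and Atp5o the groups are close, with overlap in Atp5o.

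Complex IV, cytochrome c oxidase, is built around a core made in the mitochondrion, and several of its nuclear subunits come as pairs of ubiquitous and tissue-restricted isoforms. The ubiquitous isoforms moved alike. Cox4i1, which is needed early in assembly, had 466, 430.5 and 435 FPKM against controls of 953, 996 (median) and 1105, a log2 fold change of -1.19 (SE 0.10, adjusted p = 8.27e-06). Cox7a2, Cox6b1, Cox8a and Cox6a1 were lower with log2 fold changes of -1.32, -1.19, -1.19 and -1.12. Ndufa4, named for complex I but now assigned to complex IV, had a log2 fold change of -1.12 (SE 0.20, adjusted p = 0.00108).

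The tissue-restricted isoforms gave a wider range of values. Cox7a1, the form of heart, skeletal muscle and brown fat, had 4.82, 4.52 and 3.23 FPKM in treated mice and 15.0, 30.8 (median) and 54.4 in the controls. Each treated mouse was well below each control, with a log2 fold change of -2.84 (SE 0.36, adjusted p = 1.22e-04). Cox8b, of the same tissues, was at 0.289 in mouse 2 and at the floor in mice 5 and 9, while the controls were 0.335, 1.22 (median) and 42.9. Its log2 fold change of -4.06 (SE 1.51, adjusted p = 0.0494) depended on the pseudocount, since with a pseudocount of 1 it was -2.14 (adjusted p = 0.159), and it did not pass when any 1 of mice 2, 4, 5, 7, 9, 11 and 12 was left out (-3.27 to -4.67, adjusted p = 0.0560 to 0.137).

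Control mice 4 and 7 carried the highest values of both genes, with 31.9 and 42.9 FPKM for Cox8b and 54.4 and 45.1 for Cox7a1. The same 2 mice had the highest values of the brown fat markers Ucp1, which uncouples respiration (1.18 and 4.02 FPKM, at most 0.0716 in any other mouse), and Cidea, a lipid droplet protein (8.14 and 11.1 FPKM, at most 0.860 in any other mouse). The skeletal and cardiac muscle markers Acta1, Ckm, Myh7, Myl1 and Tnnt3 were at or near the floor in every mouse. Summed FPKM of these 7 markers was 0.841 to 1.01 in the treated mice and 0.171 to 15.4 in the controls. With control mice 4 and 7 left out, chosen after the values were seen, the log2 fold change of Cox7a1 was -2.48 (adjusted p = 1.36e-04) and that of Cox8b -2.20 (adjusted p = 0.0145), and 72 of the 81 members were lower with a median of -1.09.

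**Figure D4:**
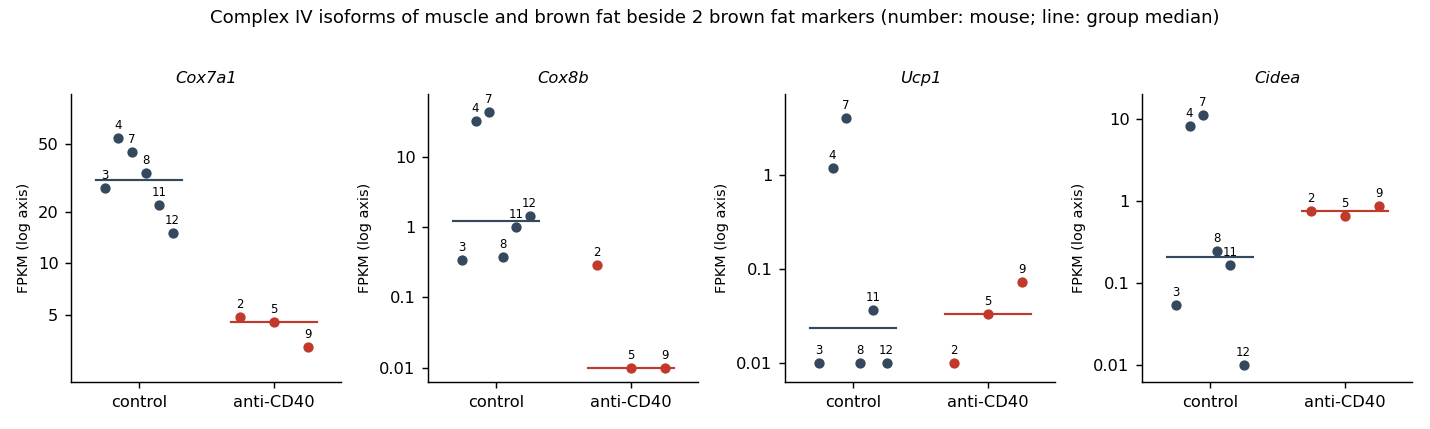
FPKM of Cox7a1 and Cox8b beside the brown fat markers Ucp1 and Cidea in each mouse on log axes, with the mouse number above each point and a line at the group median; 0.01 is the floor of the table. Control mice 4 and 7 are the 2 highest in all 4 genes, and the other 4 controls are still above the 3 anti-CD40 mice in Cox7a1 and Cox8b.

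The testis isoform Cox6b2 and the muscle isoform Cox6a2 were low and scattered in both groups, with log2 fold changes of 0.42 (SE 0.81, adjusted p = 0.696) and 0.45 (SE 1.01, adjusted p = 0.742). These 2 were the only members with a fold change above 0, and neither passed the test. Cox6a2 also shares its listed position with other genes. Cox4i2 was above the floor only in control mouse 7 (0.278 FPKM), and the testis isoforms Cox7b2 and Cox8c were at the floor in all 9 mice, so these 3 were not tested. Ndufa4l2, a relative of Ndufa4 that is induced by hypoxia, had 0.119, 0.443 and 0.01 FPKM against controls of 0.279, 0.670 (median) and 1.24, a log2 fold change of -1.78 (SE 0.51, adjusted p = 0.0158) at levels where the groups overlapped. It did not pass without anti-CD40 mouse 2 (adjusted p = 0.0571) or mouse 9 (adjusted p = 0.0831).

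Cox7a2l changed least among the members that passed the test. It is named like a subunit but encodes SCAFI, an assembly factor for supercomplexes of complexes III and IV, and C57BL/6 mice are known to carry a shortened form. It had 89.0, 79.9 and 87.2 FPKM against controls of 94.2, 104 (median) and 112, a log2 fold change of -0.27 (SE 0.09, adjusted p = 0.0371). Every treated mouse was below every control by a small margin, and the value was 0.09 (adjusted p = 0.429) with Saa1 to Saa3 left out and the rest rescaled. Leaving out any 1 of mice 2, 5, 7, 8, 9, 11 and 12 also left it short of the test (-0.23 to -0.30, adjusted p = 0.0527 to 0.150). Its ratio to Cox7a2 is hardly changed by scalings that multiply all genes of a mouse by 1 factor, which quantile normalization does not do. On the log2 scale this ratio averaged -2.23 (SD 0.03) in the anti-CD40 mice and -3.27 (SD 0.08) in the controls, with no overlap.

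Ratios were computed in each mouse for 10 pairs of isoforms or related genes. The exact 2-sided permutation test over mice was used, with Benjamini-Hochberg adjustment over the 10. Of the 10, 4 were at the smallest p of 0.0238 (adjusted p = 0.0595, not under 0.05): Cox7a2l over Cox7a2 (difference of mean log2 ratios 1.04), Cox7a1 over Cox7a2 (-1.52), Cox7a1 over Cox7a2l (-2.57) and Atp5g1 over Atp5g3 (-0.86). In these 4 pairs the groups did not overlap. With 4 of 10 pairs at the smallest p the design allows, their adjusted p could not be under 0.05. The ratios among Cox7a1, Cox7a2 and Cox7a2l depend on each other. The other 6 pairs, each with an isoform near the floor, had adjusted p from 0.198 to 0.762.

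Atp5g1, Atp5g2 and Atp5g3 encode the same mature c subunit of the ATP synthase ring behind different import signals. Atp5g1 had 58.8, 59.3 and 62.7 FPKM in treated mice and 155, 194 (median) and 240.4 in the controls, a log2 fold change of -1.68 (SE 0.14, adjusted p = 7.67e-06), the largest decrease in ATP synthase. Atp5g3 had 5116, 4143 and 4863 FPKM against 7620, 8234 (median) and 9201, a log2 fold change of -0.82 (SE 0.13, adjusted p = 4.25e-04). It did not pass with no filter on low values (adjusted p = 0.130) or when scaled to mitochondrial ribosomal protein genes (-0.40, adjusted p = 0.0520). Atp5g2 was under 1 FPKM in every mouse and did not pass the test (-1.0, SE 0.53, adjusted p = 0.153).

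The 5 subunits of the F1 head, which makes ATP, were all lower, with a median of -1.07. Atp5b, the catalytic beta subunit, had 202, 163 and 187 FPKM against 319.98, 360.4 (median) and 396, a log2 fold change of -0.97 (SE 0.11, adjusted p = 5.34e-05). Of 4 peripheral stalk subunits 3 were lower, and Atp5o, which ties the stalk to the head, did not pass the test. It had 1318, 1034 and 1183 FPKM against controls of 1132, 1467 (median) and 2105, a log2 fold change of -0.32 (SE 0.20, adjusted p = 0.211) with overlapping groups. Atp5sl and Atp5s, which are not subunits, were lower by log2 fold changes of -1.44 (SE 0.16, adjusted p = 6.17e-05) and -0.42 (SE 0.14, adjusted p = 0.0342). Atp5s did not pass when any 1 of mice 2, 3, 5, 7 and 9 was left out (-0.30 to -0.47, adjusted p = 0.0536 to 0.168).

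Subunits and carriers that the name rule does not reach were mixed. Of 6 tested, 3 were lower, beside 21.7% of all 13807 genes tested. Cyc1, the cytochrome c1 of complex III, had 42.2, 41.4 and 45.6 FPKM against 107 to 144 in the controls (log2 fold change -1.43, SE 0.11, adjusted p = 6.51e-06). Usmg5, a small ATP synthase subunit, was also lower (-1.57, SE 0.38, adjusted p = 0.00653), as was 2010107E04Rik, another (-1.11, SE 0.14, adjusted p = 1.10e-04). Ndufab1, the acyl carrier protein of complex I (-0.33, adjusted p = 0.0631), Cycs, which encodes cytochrome c (-0.30, adjusted p = 0.147), and Atpif1, the ATP synthase inhibitor (-0.23, adjusted p = 0.316), did not pass. The 13 subunits encoded by mitochondrial DNA were not analysed here.

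Of 57 factors that assemble the complexes 38 were lower, beside 21.7% of all 13807 genes tested. The difference from the subunits was not tested. For complex I, 12 of 17 tested were lower with a median of -0.58, led by Ndufaf6 (-1.54, adjusted p = 1.11e-05) and Ecsit (-1.42, adjusted p = 1.14e-05). For complex II it was 2 of 4 (median -0.33), for complex III 5 of 6 (-0.76), for complex IV 16 of 26 (-0.65) and for ATP synthase 3 of 4 (-0.61), and none of the assembly factors was higher, also at an unadjusted p under 0.05. Sco2, a copper chaperone for complex IV, had 0.01, 0.01 and 1.2 FPKM in treated mice and 12.7 to 26.3 in the controls, a log2 fold change of -5.95 (SE 0.68, adjusted p = 5.97e-05) that rests on 2 treated mice at the floor. The row 1110001J03Rik, an older name of the ATP synthase assembly factor Fmc1, had 667, 631 and 389.99 FPKM against 2322 to 3431 (-2.37, SE 0.19, adjusted p = 6.61e-06).

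In the values as deposited, the other mitochondrial genes examined also leaned lower, with medians closer to 0 than that of the subunits. Of 76 mitochondrial ribosomal proteins 51 were lower and none was higher (median -0.50). Of 18 genes of the citric acid cycle, pyruvate dehydrogenase and pyruvate carboxylase 9 were lower and 1 was higher (median -0.49). Idh3b, a subunit of isocitrate dehydrogenase, was at -1.73 (SE 0.11, adjusted p = 1.95e-06). The 1 that was higher was Pcx, pyruvate carboxylase, which is not a cycle enzyme (0.85, SE 0.12, adjusted p = 2.21e-04). Of 20 genes of electron carriers and ubiquinone synthesis 11 were lower (median -0.46), with Adck3, needed for ubiquinone synthesis, at -2.17 (SE 0.16, adjusted p = 3.85e-06) and Suox, sulfite oxidase, at -1.82. Of 23 genes for outer membrane channels and protein import 13 were lower (median -0.46), among them Vdac1 at -0.87. For comparison, 38.7% of the 4451 genes whose mean FPKM reached 10 were lower, with a median of -0.25. Medians of these lists and of the assembly factors were not computed under other scalings. With Saa1 to Saa3 left out, the median of all genes moved from 0.0056 to 0.35. Differences between these lists and the subunits were not tested.

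Carriers of adenine nucleotides and phosphate and the uncoupling proteins went both ways, with 3 of 8 lower and 3 higher. Among all 13807 genes tested, 21.7% were lower and 23.5% were higher. Slc25a5, the ADP/ATP carrier of most tissues, was lower (-1.02, SE 0.26, adjusted p = 0.00972), and the phosphate carrier Slc25a3 was lower too (-0.62). Slc25a4, the carrier of muscle, was higher, with 54.0, 46.1 and 42.9 FPKM against 18.1 to 36.5 in the controls (0.99, SE 0.24, adjusted p = 0.00621). The calcium-dependent carrier Slc25a24 (1.56, SE 0.16, adjusted p = 3.32e-05) and Ucp2 (0.87, SE 0.29, adjusted p = 0.0317) were also higher.

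**Figure D5:**
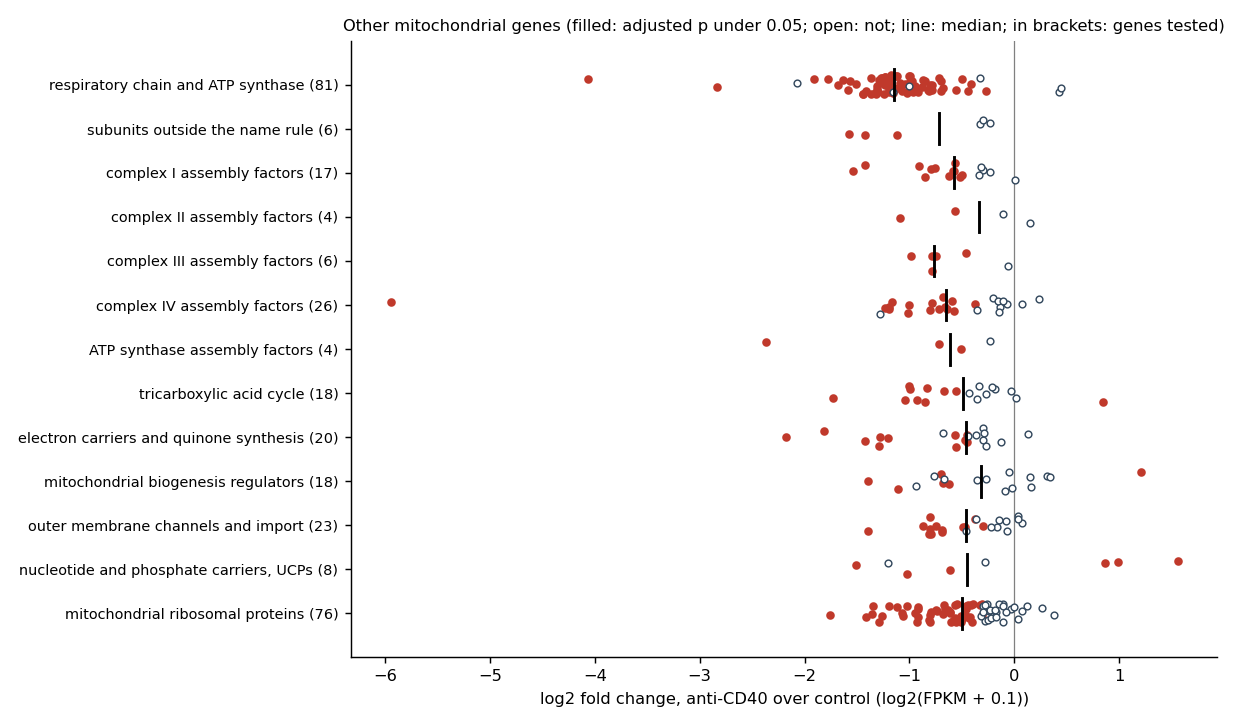
Log2 fold change of each tested gene in the respiratory chain and ATP synthase and in 12 related lists, with filled points for genes that passed the test, open points for those that did not and a line at each median. The subunits have the lowest median, -1.15. The lists of assembly, ribosome, import and citric acid cycle genes, the last with pyruvate enzymes, have medians from -0.76 to -0.33.

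Regulators of mitochondrial biogenesis showed no shared direction of comparable size. Of 18 tested, 5 were lower and 1 was higher (median -0.31), beside 21.7% lower and 23.5% higher among all 13807 genes tested. Ppargc1a, the coactivator PGC-1 alpha, had 2.08, 3.05 and 5.54 FPKM against 2.03 to 3.43 in the controls and did not pass the test (0.31, SE 0.28, adjusted p = 0.381). Nrf1 (0.15, SE 0.12, adjusted p = 0.325) and Gabpa (-0.09, SE 0.14, adjusted p = 0.637), whose motifs were searched above, did not pass either. Esrra, a nuclear receptor partner of PGC-1, was lower, with 3.28, 3.81 and 3.08 FPKM against 4.60 to 6.37 (-0.68, SE 0.14, adjusted p = 0.00275). Tfam, which packages and transcribes mitochondrial DNA, was lower (-0.63, SE 0.20, adjusted p = 0.0287), with control mice 8 and 12 at 13.8 and 13.4 FPKM, the other 4 controls at 21.0 to 23.2 and the treated mice at 10.9 to 13.0. Ppargc1b (-1.11, adjusted p = 0.0324) was lower and Pprc1, a PGC-1 related coactivator, was higher (1.21, SE 0.20, adjusted p = 6.12e-04).

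The fold changes depend on what the values are scaled to. With Saa1 to Saa3 left out and the rest rescaled, the median of all genes moved from 0.0056 to 0.35, the median of the members was -0.79, and 66 of 81 were lower. This rescaling multiplies all genes of a mouse by 1 factor, so it leaves the order of the fold changes nearly as it was. Quantile normalization changes each gene by its own amount, and with it the median of all genes was -0.091, the median of the members was -0.75, 67 of 81 were lower and 76 of 81 were below the median of all genes, against 79 of 81 as deposited. With mitochondrial ribosomal protein genes as the scale, the median of all genes was 0.40. On that scale 59 of 81 members were still lower, with a median of -0.73. For comparison, 1647 of 13860 genes tested were lower with Saa1 to Saa3 left out and 3456 of 13807 with quantile normalization. On the ribosomal scale 1319 of 13856 were lower.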

How the data were processed

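Liver RNA of 9 mice (3 anti-CD40, 6 control) was sequenced from the 3′ end with QuantSeq. The authors aligned reads to mm10 with STAR (RNA-Seq Alignment 1.1.0, up to 14 mismatches) and ran CuffDiff (Cufflinks Assembly & DE 2.1.0), and they deposited FPKM values per gene and mouse. The annotation and filter are not given in the sources used here. Groups came from the sample labels.

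The deposited FPKM were used unscaled. The 15 genes with a failed estimate (0 members) were left out. Genes whose mean FPKM reached 0.1 were tested as log2(FPKM + 0.1) with limma 3.58.1 in R 4.3.3 (lmFit, eBayes with trend), treatment the only factor, 2-sided, Benjamini-Hochberg at 0.05. The pseudocount understates changes of low genes. Exact permutation used all 84 assignments of the mice. Python 3.11.15 did the other steps. The limma step was tested on simulated data.

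Members, lists and the naming rule (in each complex the 2 lowest and 2 highest, isoform groups, members not tested, and up to 3 genes per list) were chosen with earlier results of these data known. Genes named outside the rule (among them Ndufb9, Ndufv1, Ndufa1, Cox7c, Atp5b, Atp5l, Slc25a3, Slc25a4 and Ucp2) were chosen after their values were seen. The values of 1 complex I member are not reported here, though it is in the counts and medians. Position starts were raised by 1 to count from 1, and 14 members share a listed position with other genes, so their reads may not be separable. Alternatives were other pseudocounts, filters, scalings and limma settings, and leaving out each mouse.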

Additional observations from a re-analysis of the deposited data

Results flagged for a closer look

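Dixon's ratio over the 6 control mice, on log2(FPKM + 0.1), was computed for the 81 tested members and for 6 mean levels (all members and each complex). The ratio passed its 95% critical value in 3 of the 87, where chance gives about 1 in 20. Control mouse 12 was the lowest control for Ndufa5 (ratio 0.769), with 1040.4 FPKM beside 1332 to 1434 in the other controls. Control mouse 8 was the highest control for Uqcr10 (ratio 0.701), with 2681 FPKM beside 2117 to 2272, and for Ndufb9 (ratio 0.640), with 1634 FPKM beside 1183 to 1329. All 3 genes were lower in the anti-CD40 mice with and without the mouse named.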

How the results depend on the processing

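In each of 25 alternatives between 59 and 77 members were lower, 70 to 75 when 1 mouse was left out, and 0 were higher in the 23 that counted them. Leaving out 1 mouse gave medians of -1.17 to -1.11 over the members, -1.17 to -1.09 in complex I, -1.32 to -1.11 in II, -1.21 to -1.13 in III, -1.23 to -1.13 in IV and -1.06 to -0.95 in ATP synthase. Scaling moved the medians most. In the order all members, complexes I to IV and ATP synthase, they were -0.75, -0.71, -0.77, -0.80, -0.73 and -0.70 with quantile normalization, -0.79, -0.79, -0.83, -0.79, -0.83 and -0.64 with Saa1 to Saa3 left out, and -0.73, -0.74, -0.77, -0.74, -0.77 and -0.58 scaled to mitochondrial ribosomal proteins. The complex I median was -1.08 with a pseudocount of 1. Without control mice 8 and 12 the medians were -1.505 for complex II and -1.15 for ATP synthase. The other medians moved by less than the spread between control mice.

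Under those 3 scalings Atp5o was 0.12, 0.043 and 0.097 and Cox7a2l was 0.10, 0.094 and 0.15, so their direction turned. Ndufs6 was 0.023 with quantile normalization. Leaving out 1 mouse gave -0.15 (without control mouse 8) to 0.75 (without control mouse 4) for Cox6b2 and -0.070 (without control mouse 3) to 0.998 (without anti-CD40 mouse 5) for Cox6a2. The causes were not tested. Of the 23 alternatives, Cox7a2l did not pass in 14 (3 of them turned), Cox8b in 13, Atp5s in 9, Atp5l in 7, Ndufa8 in 5 and Ndufa4l2 in 4. Another 13 called members did not pass in 1 to 3, Atp5g3 among them. No paired analysis was possible because the groups share no mouse numbers.

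Depth is unknown, so values near the floor (Cox8b, Ndufs5, Atp5g2, Ndufa4l2) rest on an unknown number of reads.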
